A study of Mus musculus with 27 samples.

Results

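A set of 10 immediate early genes that respond to the mitogen-activated protein kinase (MAPK) pathway was followed in mouse liver: *Fos*, *Jun*, *Junb*, *Egr1*, *Ier2*, *Ier3*, *Dusp1*, *Dusp6*, *Myc* and *Atf3*. They were chosen by name as a transcript readout of growth factor receptor signaling and not by a filter on their values, although earlier results of these data were known. All 10 were found among the 23191 gene symbols of the count table, and all 10 passed the filter on low counts in every comparison. Liver mRNA was sequenced in 27 male C57BL/6J mice, 1 library a mouse. Mice with a whole-body deletion of HGFAC (HGFAC-KO), made by CRISPR/Cas9 and lacking part of the first exon and all of the second, were compared with littermate controls. Mice were 8 weeks old in the design text and were fed chow or a diet rich in fat and sucrose (HF/HS) for 4 weeks. The groups were controls on chow (7 mice), HGFAC-KO on chow (6 mice), controls on HF/HS (7 mice) and HGFAC-KO on HF/HS (7 mice). The feeding state at collection is not stated for these libraries, although livers of the same 4 groups were taken for lipid measurements after an overnight fast and refeeding.

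HGFAC is a serine protease, secreted by the liver, that activates hepatocyte growth factor, the ligand of the receptor tyrosine kinase MET. Receptor tyrosine kinases signal through RAS, RAF, MEK and ERK, and ERK phosphorylates transcription factors already present in the nucleus, so that immediate early genes are transcribed within minutes and without new protein synthesis. Their mRNAs are short-lived, and stress kinases, cytokines, glucocorticoids, feeding and the handling of the tissue can also move them.

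Total counts ran from 36056177 to 57298657 a library. *Hgfac*, the targeted gene, lay between 183 and 219 CPM (counts scaled by library size) in controls on chow and between 65.4 and 84.5 CPM in HGFAC-KO mice on chow. On HF/HS it lay between 247 and 296 CPM in controls and between 81.8 and 101 CPM in HGFAC-KO mice, so every mouse lay on the side of its genotype label, while diet is not checked by this gene. Hepatocyte markers were by far the most abundant, with a median of 66870 CPM for *Alb*, and none of the marker lists of other liver cell types had a gene at 0 throughout a group. In bulk liver, fewer cells of a type and less RNA per cell cannot be told apart.

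RefSeq promoters (build GRCm38.p6, the 250 bases before the start) were held for 7 of the 10 members, and 5 are shown 5′ to 3′: *Fos* and *Junb*, the pair whose levels went together most closely across mice, *Ier3*, which went with *Junb*, and *Atf3* and *Dusp1*, which hold a cyclic AMP response element (CRE) or its half-site. Capitals mark matches to the CRE (TGACGTCA), its half-site (TGACGT, which is part of the CRE), an AP-1 site (TGACTCA or TGAGTCA), an EGR site (GCGGGGGCG), a CArG box, an NF-kB site or a TATA box (TATAAA), searched on both strands.
Fos (chr12:85473640-85473889, + strand): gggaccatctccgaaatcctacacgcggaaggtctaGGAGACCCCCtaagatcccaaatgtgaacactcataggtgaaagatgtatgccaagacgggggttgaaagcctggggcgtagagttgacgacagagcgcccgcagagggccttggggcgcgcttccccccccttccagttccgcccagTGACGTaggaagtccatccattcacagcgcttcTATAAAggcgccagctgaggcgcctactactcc
Junb (chr8:84978749-84978998, - strand): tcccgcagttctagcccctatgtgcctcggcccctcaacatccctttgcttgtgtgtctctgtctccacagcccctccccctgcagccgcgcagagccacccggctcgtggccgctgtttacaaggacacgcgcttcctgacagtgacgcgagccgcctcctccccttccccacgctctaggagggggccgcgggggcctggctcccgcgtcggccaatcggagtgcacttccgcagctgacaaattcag
Ier3 (chr17:35821463-35821712, + strand): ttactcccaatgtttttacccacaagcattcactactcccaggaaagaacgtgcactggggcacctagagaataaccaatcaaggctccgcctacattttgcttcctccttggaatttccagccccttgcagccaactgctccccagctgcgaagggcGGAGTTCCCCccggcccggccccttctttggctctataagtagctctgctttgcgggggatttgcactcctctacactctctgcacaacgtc
Dusp1 (chr17:26508473-26508722, - strand): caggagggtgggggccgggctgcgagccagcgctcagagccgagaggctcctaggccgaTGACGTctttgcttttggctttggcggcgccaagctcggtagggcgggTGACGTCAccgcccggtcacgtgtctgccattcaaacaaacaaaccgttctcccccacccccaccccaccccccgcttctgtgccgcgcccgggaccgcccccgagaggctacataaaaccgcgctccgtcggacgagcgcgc
Atf3 (chr1:191183334-191183583, - strand): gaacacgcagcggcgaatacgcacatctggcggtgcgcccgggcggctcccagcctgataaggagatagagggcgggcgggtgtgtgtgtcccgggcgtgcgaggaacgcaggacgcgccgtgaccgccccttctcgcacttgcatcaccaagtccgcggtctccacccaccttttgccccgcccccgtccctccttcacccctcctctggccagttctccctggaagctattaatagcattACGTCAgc

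*Dusp1* was the only one of the 7 with a full CRE, 143 to 136 bases before the start, which 1.55% of the 32851 promoters of the table hold. The half-site, held by 6.47% of them, stood in *Dusp1*, in *Fos* (66 to 61 bases before the start) and in *Atf3* (8 to 3 bases before it). An NF-kB match, held by 3.9%, stood in *Fos* (214 to 205 bases) and *Ier3* (92 to 83 bases), and *Fos* had a TATA box (33 to 28 bases), as 12.4% have. No CArG box (1.47%), AP-1 site (4.46%) or EGR site (2.57%) was found in these windows, and *Junb*, *Jun* and *Dusp6* held none of the marked motifs. Matches are letters in a window and not measured binding.

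The genes are single loci in GRCm38 (mm10). *Fos* lies on chromosome 12 (85473890 to 85477273, + strand), *Jun* on chromosome 4 (95049034 to 95052222, - strand) and *Junb* on chromosome 8 (84974484 to 84978718, - strand). *Egr1* lies on chromosome 18 (34859823 to 34864984, + strand), *Ier2* on chromosome 8 (84661331 to 84662852, - strand) and *Ier3* on chromosome 17 (35821684 to 35822923, + strand). *Dusp1* lies on chromosome 17 (26505590 to 26562128, - strand) and *Dusp6* on chromosome 10 (99263231 to 99267489, + strand). *Myc* lies on chromosome 15 (61985391 to 61990374, + strand) and *Atf3* on chromosome 1 (191170296 to 191218039, - strand). These spans are from GENCODE, whereas the promoter windows and their distances refer to a RefSeq start, which can differ. The windows of *Dusp1* and *Atf3* lie inside these spans, and that of *Ier3* overlaps the first bases of its span. Other starts of these genes were not searched.

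Per kilobase of annotated exon, the scale on which genes can be compared, *Ier2*, *Dusp6*, *Junb*, *Jun* and *Dusp1* were the more abundant members. Their medians over the 27 mice were 13.4, 11.8, 10.8, 10.1 and 8.76 CPM per kb. The other members were about an order of magnitude lower: *Egr1* had a median of 1.61, *Atf3* of 1.22, *Myc* of 1.18, *Ier3* of 0.991 and *Fos* of 0.679 CPM per kb. The low level of *Fos* meant that its counts ran from 21 to 174 a library, with a counting error of 12.3% at the median count, and *Ier3* ran from 18 to 111 with a counting error of 14.3%. For *Jun*, *Junb*, *Dusp1*, *Dusp6* and *Ier2* the counting error at the median count was between 2.47% and 3.34%.

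The range over all mice differed widely among members. *Egr1*, which encodes a zinc finger transcription factor, ran from 1.40 CPM in mouse 3 of the controls on chow to 58.3 CPM in mouse 3 of the HGFAC-KO group on HF/HS, a 41.8-fold range. *Fos* spanned 8.50-fold, *Myc* 7.69-fold, *Junb* 6.80-fold, *Ier3* 6.17-fold and *Atf3* 6.03-fold. *Jun* spanned 4.36-fold, *Dusp1* 3.81-fold, *Dusp6* 2.24-fold and *Ier2* 1.85-fold. The members thus did not share a common scale of variation.

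**Figure D1:**
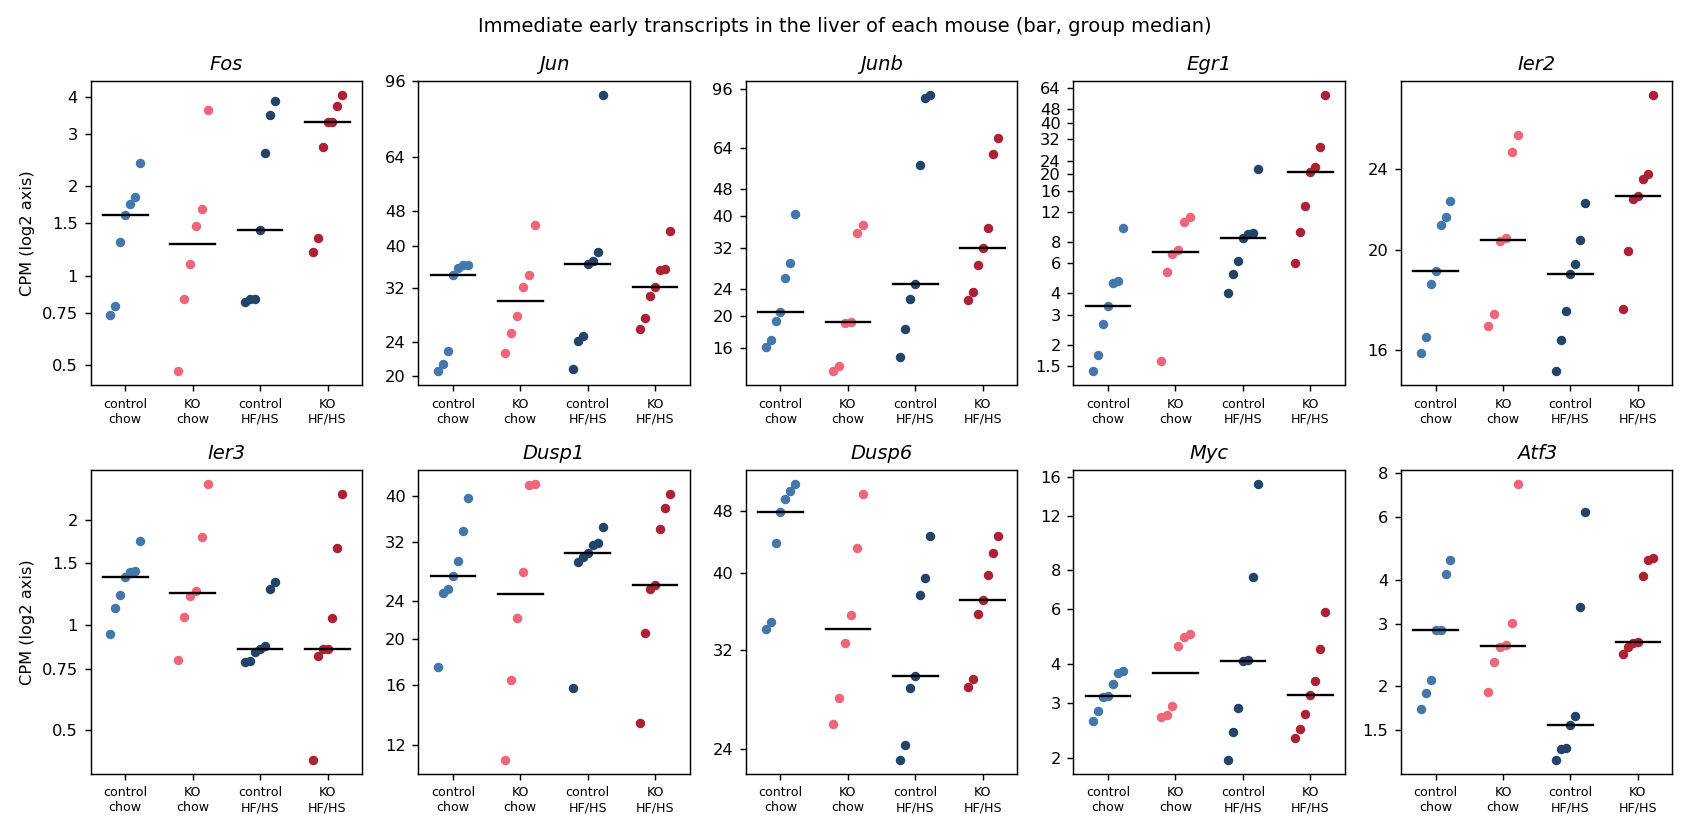
CPM of each of the 10 genes (log2 axis, 1 point a mouse, bar at the group median) in the 4 groups. *Egr1* runs from 1.40 to 58.3 CPM and is highest in HGFAC-KO mice on HF/HS, while *Ier2* stays between 15.3 and 28.3 CPM, and the groups overlap for every gene.

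The first question was whether loss of HGFAC moved these transcripts on either diet. No member passed the threshold (adjusted p under 0.05, quasi-likelihood test of edgeR, adjusted after Benjamini and Hochberg over all genes tested) in HGFAC-KO mice against controls, on chow or on HF/HS. The same test called 0.00737% of 13571 genes on chow and 0.0148% of 13544 genes on HF/HS, so very few genes of any kind were called. On chow 0 of 10 members had an unadjusted p under 0.05, against 5.98% of all genes, and on HF/HS 2 of 10 did, *Egr1* and *Ier2*, against 9.64%. Limma voom also called 0 members on each diet, and DESeq2 called 0 on HF/HS. On chow the independent filtering of DESeq2 left the members without an adjusted p, so it could call none. Without that filtering, a setting added after seeing the data, DESeq2 called 0 members on chow (adjusted p from 0.737 to 0.991). The median log2 fold change over the members was 0.10 on chow and 0.21 on HF/HS, beside medians of 0.00 over all genes tested. No member had groups that did not overlap, which 0.136% of genes had on chow and 0.0861% on HF/HS. These p-values measure the spread between the mice of this cohort.

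The second question was whether the diet moved them. With HF/HS against chow, 0 of 10 members passed in controls, where 10.5% of 13525 genes did, and 0 of 10 passed in HGFAC-KO mice, where 5.89% of 13613 genes did. At an unadjusted p under 0.05 there were 3 members in controls (*Egr1*, *Ier3* and *Dusp6*), against 25.4% of all genes, and 2 in HGFAC-KO mice (*Egr1* and *Junb*), against 22.4%. DESeq2 called 1 member in each genotype, *Dusp6* in controls and *Egr1* in HGFAC-KO mice, and limma voom called *Dusp6* in controls and 0 members in HGFAC-KO mice. The members' median log2 fold change with diet was 0.21 in controls and 0.07 in HGFAC-KO mice, against 0.00 over all genes in each. No member had chow and HF/HS groups that did not overlap, as 3.44% of all genes had in controls and 2.96% in HGFAC-KO mice.

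Further contrasts used all 27 mice. The interaction, which asks whether the genotype effect differed between diets, called 0 of 10 members and 0% of 13932 genes, and DESeq2 and limma voom called 0 members as well. At an unadjusted p under 0.05 there was 1 member, *Dusp6*, against 3.63% of all genes. A fit with 1 genotype term and 1 diet term, added after the results within genotypes had been seen, called 0 of 10 members for genotype, beside 0.158% of 13932 genes, and DESeq2 and limma voom called 0. Its unadjusted p was under 0.05 for *Egr1* and *Ier2*, against 13.1% of all genes. For diet the same fit called 2 of 10 members, *Egr1* and *Junb*, both higher on HF/HS, beside 23.5% of 13932 genes called in either direction. DESeq2 called 2 and limma voom 1. An unadjusted diet p under 0.05 was found for 3 members (*Egr1*, *Junb* and *Fos*), against 36.1% of all genes, so the share of members was not above that of all genes.

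**Figure D2:**
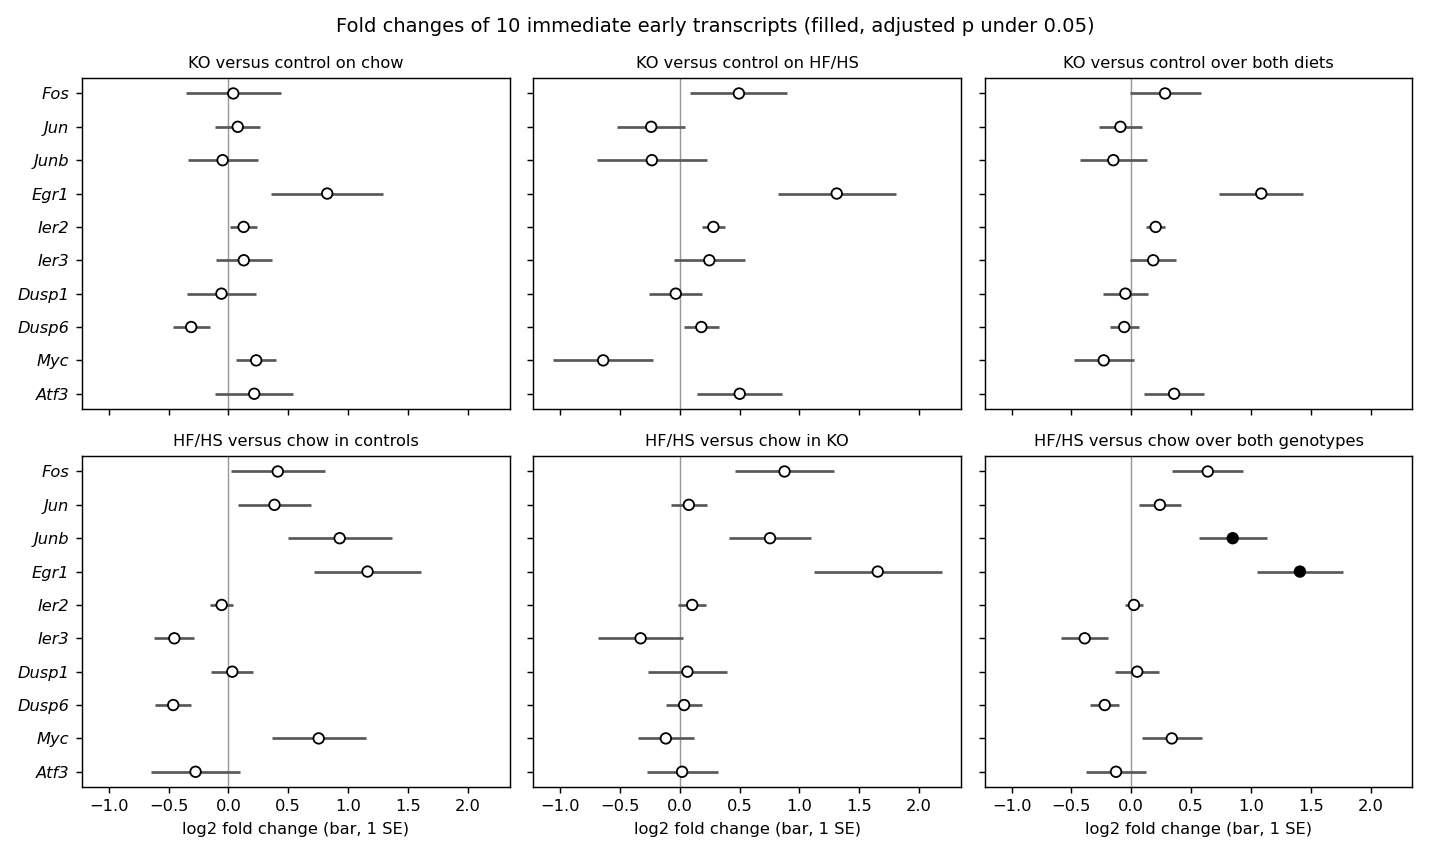
Log2 fold changes of the 10 genes (points, with bars of 1 SE) for genotype (upper row) and diet (lower row), within each group and over all 27 mice. Filled points mark an adjusted p under 0.05, which only *Egr1* (1.41) and *Junb* (0.85) had, with HF/HS against chow over both genotypes.

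*Egr1* had the largest fold change among the members in each genotype and each diet comparison. In controls on chow it ran from 1.40 to 9.70 CPM with a median of 3.39, and in HGFAC-KO mice on chow from 1.6 to 11.2 CPM with a median of 7.00. In controls on HF/HS it ran from 4.00 to 21.4 CPM with a median of 8.48, and in HGFAC-KO mice on HF/HS from 5.99 to 58.3 CPM with a median of 20.6. The group medians differed, but within a group the highest mouse was between 5.36-fold and 9.74-fold above the lowest. All 7 controls on HF/HS lay above the median of the controls on chow, and 5 of 7 HGFAC-KO mice on HF/HS lay above every HGFAC-KO mouse on chow. Over both genotypes *Egr1* was higher on HF/HS by 1.41 ± 0.36 (SE) on the log2 scale (edgeR, adjusted p = 0.00559). Within genotypes the log2 difference was 1.16 ± 0.44 in controls (adjusted p = 0.116) and 1.65 ± 0.53 in HGFAC-KO mice (adjusted p = 0.088). The value in HGFAC-KO mice passed with DESeq2 (1.66, adjusted p = 0.026), in the edgeR fit of all 4 groups (1.66, adjusted p = 0.0469), with a replicate block (1.68, adjusted p = 0.0319) and without mouse 4 of the HGFAC-KO group on HF/HS (1.82, adjusted p = 0.0497), and that in controls without mouse 5 of the controls on chow (1.55, adjusted p = 0.0337). Over 35 alternative settings of the fit of all mice, the adjusted p for diet stayed between 0.000674 and 0.0144.

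Between genotypes *Egr1* was above its controls by 0.83 ± 0.47 on chow (edgeR, adjusted p = 0.81) and by 1.31 ± 0.49 on HF/HS (adjusted p = 0.448), and by 1.09 ± 0.35 over both diets (adjusted p = 0.184). These are log2 fold changes, and none passed the threshold. On chow 5 of 6 HGFAC-KO mice and on HF/HS 6 of 7 lay above the median of their controls. The interaction was 0.49 ± 0.71 (adjusted p = 0.984), so the genotype effects on the 2 diets were not separated. Without mouse 3 of the HGFAC-KO group on HF/HS, the highest of all, the values in that group ended at 28.9 CPM, the genotype difference on HF/HS was 0.87 (edgeR, adjusted p = 0.668) and the interaction 0.05 (adjusted p = 0.999). Without mouse 1 of the controls on HF/HS they were 1.69 and 0.87 (edgeR, adjusted p = 0.546 and 0.973), and the interaction was 0.10 without mouse 5 of the controls on chow and 0.29 without mouse 4 of the HGFAC-KO group on chow.

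*Junb*, *Fos* and *Jun* encode subunits of the AP-1 transcription factor, in which a FOS protein pairs with a JUN protein. *Junb* ran from 16.1 to 40.4 CPM in controls on chow (median 20.6) and from 13.6 to 37.4 CPM in the HGFAC-KO group on chow (median 19.1). On HF/HS it ran from 15 to 92.5 CPM in controls (median 24.9) and from 22.3 to 68.7 CPM in the HGFAC-KO group (median 31.9). The controls on HF/HS had the widest spread, with 3 of 7 above and 1 of 7 below every chow control, while the SD of log2 CPM was 0.64 in HGFAC-KO mice on each diet. All 7 HGFAC-KO mice on HF/HS lay above the median of HGFAC-KO mice on chow. Over both genotypes *Junb* was higher on HF/HS by 0.85 ± 0.28 on the log2 scale (edgeR, adjusted p = 0.0323). That call was lost, with adjusted p between 0.0501 and 0.068, without mouse 1 or 2 of the controls on chow, mouse 1 or 7 of the controls on HF/HS, mouse 2 or 5 of the HGFAC-KO group on chow, or mouse 2 or 6 of the HGFAC-KO group on HF/HS. Its value without these mice stayed between 0.71 and 0.83. It was lost as well with limma voom (0.70, adjusted p = 0.059) and with a replicate block (0.74, edgeR, adjusted p = 0.0984). Within genotypes the difference was 0.93 ± 0.43 in controls (adjusted p = 0.2) and 0.75 ± 0.34 in HGFAC-KO mice (adjusted p = 0.214). Between genotypes it was -0.05 ± 0.29 on chow and -0.23 ± 0.46 on HF/HS, far inside the spread between mice.

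*Fos* was the lowest member per kilobase. It ran from 0.738 to 2.39 CPM in controls on chow (median 1.6), from 0.477 to 3.61 CPM in HGFAC-KO mice on chow (median 1.28) and from 0.817 to 3.88 CPM in controls on HF/HS (median 1.43). The HF/HS-fed HGFAC-KO group ran from 1.2 to 4.06 CPM with a median of 3.29, where 5 mice lay at 2.71 CPM or more and the other two at 1.2 and 1.34 CPM. The log2 difference between HF/HS and chow was 0.41 ± 0.40 in controls (edgeR, adjusted p = 0.563), 0.88 ± 0.41 in HGFAC-KO mice (adjusted p = 0.226) and 0.64 ± 0.30 over both (adjusted p = 0.121). Without mouse 1 or mouse 7 of the controls on HF/HS the diet difference in controls was 0.22 or 0.17, and without mouse 7 the genotype difference on HF/HS was 0.74 (edgeR, adjusted p = 0.797, 0.837 and 0.462). The highest chow value came from mouse 1 of the HGFAC-KO group. Without that mouse the difference was 1.33 in HGFAC-KO mice (adjusted p = 0.0439) and 0.82 over both genotypes (adjusted p = 0.0446). Between genotypes *Fos* had a difference of 0.04 ± 0.40 on chow and one of 0.49 ± 0.40 on HF/HS (adjusted p = 0.988 and 0.726).

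*Jun* ran from 20.5 to 36.2 CPM in controls on chow (median 34.3), from 22.6 to 44.6 CPM in HGFAC-KO mice on chow (median 29.8) and from 25.6 to 43.2 CPM in the HGFAC-KO group on HF/HS (median 32). In controls on HF/HS 6 mice lay between 20.7 and 38.7 CPM and mouse 7 at 89.3 CPM. All groups overlapped. Log2 differences within groups lay between -0.24 and 0.39 for genotype and diet, with adjusted p from 0.47 to 0.942 (edgeR). Without mouse 7 of the controls on HF/HS, the genotype difference on HF/HS went from -0.24 to 0.12 and the diet difference in controls from 0.39 to 0.03, both short of the threshold.

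*Atf3* encodes a stress-inducible member of the ATF/CREB family that can pair with JUN proteins. It ran from 1.72 to 4.53 CPM in controls on chow (median 2.88), from 1.93 to 7.47 CPM in HGFAC-KO mice on chow (median 2.60), from 1.24 to 6.21 CPM in controls on HF/HS (median 1.55) and from 2.47 to 4.59 CPM in the HGFAC-KO group on HF/HS (median 2.66). On HF/HS 5 of 7 controls lay below every control on chow, and all 7 HGFAC-KO mice lay above the median of the controls. The log2 difference between genotypes on HF/HS was 0.50 ± 0.35 (edgeR, adjusted p = 0.678), and mouse 7 of the controls on HF/HS lay above every HGFAC-KO mouse on that diet. Without that mouse the difference was 0.95 (edgeR, adjusted p = 0.205), still short of the threshold. In controls HF/HS differed from chow by -0.27 ± 0.37 (adjusted p = 0.698), and by -0.72 without mouse 7 (edgeR, adjusted p = 0.114). Without any one of the other mice of this comparison the value was -0.12 or further below 0.

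*Myc*, a transcription factor of growth and ribosome production, was narrow on chow, from 2.63 to 3.81 CPM in controls (median 3.18) and from 2.72 to 4.99 CPM in the HGFAC-KO group (median 3.76). On HF/HS it ran from 1.98 to 15.2 CPM in controls (median 4.10) and from 2.33 to 5.91 CPM in the HGFAC-KO group (median 3.20). The width in controls on HF/HS came from mouse 2 at 15.2 CPM and mouse 3 at 7.62 CPM, while 2 of 7 lay below every chow control. HF/HS differed from chow by 0.75 ± 0.39 in controls and by -0.12 ± 0.23 in HGFAC-KO mice on the log2 scale (edgeR, adjusted p = 0.249 and 0.807). The interaction was -0.87 ± 0.48 (adjusted p = 0.984), so the difference between these effects did not pass. Mouse 2 of the controls on HF/HS carried much of both values, and without it the diet difference in controls was 0.24 (edgeR, adjusted p = 0.614), the interaction -0.35 (adjusted p = 0.959) and the genotype difference on HF/HS -0.12 in place of -0.64.

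*Ier2* and *Ier3* encode small proteins of the immediate early response, the latter a regulator of ERK and of cell survival. *Ier2* was the least variable member. It ran from 15.9 to 22.3 CPM in controls on chow (median 19.1), from 16.9 to 25.8 CPM in HGFAC-KO mice on chow (median 20.5), from 15.3 to 22.2 CPM in controls on HF/HS (median 19.0) and from 17.5 to 28.3 CPM in the HGFAC-KO group on HF/HS (median 22.6). On HF/HS 5 of 7 HGFAC-KO mice lay above every control. The log2 difference was 0.28 ± 0.10 on HF/HS (edgeR, adjusted p = 0.448), 0.13 ± 0.11 on chow (adjusted p = 0.843) and 0.20 ± 0.08 over both diets (adjusted p = 0.254). The difference was small and positive on both diets, and did not pass after adjustment. Leaving out 1 mouse at a time, the value on chow ran from 0.06 to 0.19.

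*Ier3* ran from 0.942 to 1.74 CPM in controls on chow (median 1.37) and from 0.786 to 1.33 CPM in controls on HF/HS (median 0.857), where 5 of 7 mice lay below every control on chow and none above their median. In HGFAC-KO mice it ran from 0.796 to 2.54 CPM on chow (median 1.23) and from 0.411 to 2.37 CPM on HF/HS (median 0.855). The log2 difference between HF/HS and chow was -0.45 ± 0.17 in controls (edgeR, adjusted p = 0.096), -0.33 ± 0.35 in HGFAC-KO mice (adjusted p = 0.624) and -0.39 ± 0.19 over both (adjusted p = 0.149). Mouse 2 of the HGFAC-KO group on HF/HS held the highest value of its group, and without it the difference was -0.62 in HGFAC-KO mice (edgeR, adjusted p = 0.282) and -0.52 over both genotypes (adjusted p = 0.0296). Without mouse 1 of the HGFAC-KO group on chow, the highest on chow, it was -0.09 in HGFAC-KO mice. *Ier3* thus lay on the opposite side of 0 from *Egr1* and *Junb* with diet.

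*Dusp1* and *Dusp6* encode dual-specificity phosphatases that end MAPK signaling, the first in the nucleus on several MAPKs and the second in the cytoplasm on ERK. *Dusp6* ran from 34 to 52.0 CPM in controls on chow (median 47.8) and from 23.2 to 44.6 CPM in controls on HF/HS (median 29.6). In HGFAC-KO mice it ran from 25.8 to 50.4 CPM on chow (median 34) and from 28.8 to 44.7 CPM on HF/HS (median 37.1). The controls on chow were the highest group, and 4 of 7 controls on HF/HS and 3 of 6 HGFAC-KO mice on chow lay below every one of them. HF/HS differed from chow by -0.46 ± 0.15 in controls on the log2 scale (edgeR, adjusted p = 0.0647) and by 0.04 ± 0.15 in HGFAC-KO mice (adjusted p = 0.919). DESeq2 gave -0.46 in controls with an adjusted p of 0.0229 and limma voom -0.47 with 0.0493. The value passed with edgeR as well without mouse 4 of the controls on chow (-0.52, adjusted p = 0.0445) or mouse 6 of the controls on HF/HS (-0.55, adjusted p = 0.0272).

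Between genotypes *Dusp6* had a difference of -0.31 ± 0.16 on chow and one of 0.18 ± 0.15 on HF/HS on the log2 scale (edgeR, adjusted p = 0.801 and 0.726). The difference between these effects was 0.50 ± 0.23 (adjusted p = 0.984). *Dusp1* ran from 17.5 to 39.6 CPM in controls on chow (median 27.1), from 11.1 to 42.4 CPM in HGFAC-KO mice on chow (median 24.9), from 15.8 to 34.4 CPM in controls on HF/HS (median 30.3) and from 13.3 to 40.4 CPM in the HGFAC-KO group on HF/HS (median 26.0). Its mean level was almost the same in all groups, between 27 and 28.9 CPM, although mice differed up to 3.81-fold within a group. Its genotype and diet differences within groups lay between -0.06 and 0.06 on the log2 scale, with SE between 0.17 and 0.33.

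The spread between mice of the same group was then set beside that of all genes. The pooled SD within groups of log2 CPM was 0.957 for *Egr1*, 0.820 for *Fos*, 0.757 for *Junb*, 0.640 for *Atf3* and 0.613 for *Myc*, against a median of 0.183 over the 13932 genes. These values lay at the 99.4th, 98.8th, 98.3rd, 96.6th and 96.1st percentile of all genes. *Dusp1* (0.530) and *Ier3* (0.520) lay at the 93.0th and 92.5th percentile, and *Jun* (0.460) at the 88.9th. On this scale *Dusp6* (0.311, 74.9th percentile) and *Ier2* (0.212, 57.6th percentile) varied no more than many other genes. Most of the set was thus among the more variable transcripts of these livers, as a description with no test.

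Low genes vary more in such data, so the comparison was repeated at equal level. The biological coefficient of variation estimated for the gene was 50.4% for *Junb*, 4.12 times the 12.2% of the trend at its level, and 61.5% for *Egr1*, 3.96 times its trend. It was 2.69 times the trend for *Dusp1*, 2.60 times for *Jun*, 2.42 times for *Fos*, 2.30 times for *Myc* and 2.27 times for *Atf3*. The ratio was 1.68 for *Dusp6*, 1.42 for *Ier3* and 1.04 for *Ier2*. These 3 ratios lay at the 94.67th, 90.91st and 76.25th percentile of all genes, below those of the other members. At equal level *Junb* and *Egr1* stood out more than *Fos* and *Ier3*, the members with the fewest counts.

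**Figure D3:**
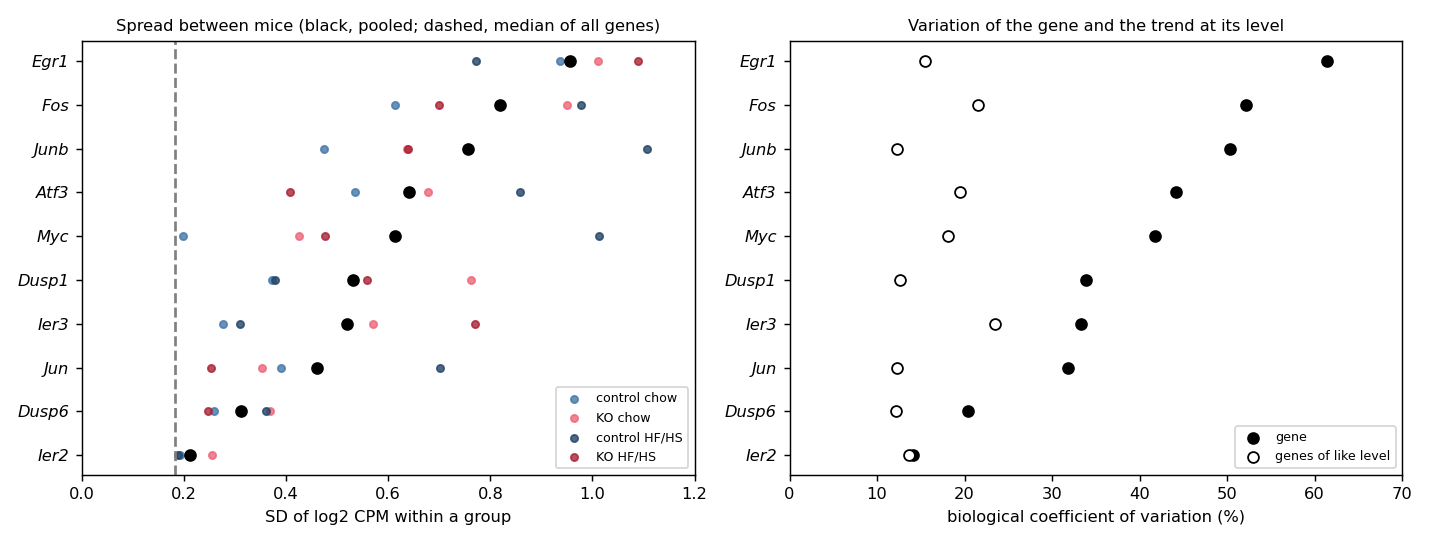
Spread between mice of a group for each gene. Left, the SD of log2 CPM in each group and pooled (black), with the median of all genes (0.183) dashed; right, the biological coefficient of variation of the gene (filled) and the trend of genes at its level (open), from 61.5% for *Egr1* to 14.2% for *Ier2*.

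Single mice carried several of the high values. Mouse 7 of the controls on HF/HS was above its group mean by 1.62 for *Atf3*, 1.37 for *Jun*, 1.35 for *Junb* and 1.24 for *Fos* in log2 CPM, at or above the 99.0th percentile of all genes in that library, but by only 0.20 for *Egr1*. Mouse 1 of the same group was above its mean by 1.44 for *Egr1*, 1.37 for *Junb* and 1.07 for *Fos*, and below it by -0.51 for *Jun*. Mouse 1 of the HGFAC-KO group on chow was above by 1.48 for *Fos*, 1.32 for *Atf3*, 0.90 for *Ier3* and 0.88 for *Egr1*. In that mouse *Junb* was above by 0.74. All 3 mice were thus high for *Fos*, *Junb* and *Ier3* (0.42, 0.48 and 0.90 for *Ier3*), while *Jun*, *Egr1* and *Atf3* were each near or below the group mean in at least 1 of them. Other mice were low for several members. Mouse 5 of the controls on HF/HS was at -1.11 for *Myc*, -0.92 for *Fos* and -0.73 for *Jun*, and mouse 5 of the HGFAC-KO group on chow at -1.32 for *Fos* and -1.12 for *Dusp1*. Mouse 2 of the controls on HF/HS showed another pattern, with *Myc* above its mean by 1.81 and *Junb*, *Fos* and *Dusp1* at -0.97, -0.92 and -0.84. In mouse 3 of the HGFAC-KO group on HF/HS *Egr1* deviated by 1.72 and *Fos* by 0.66, while *Junb* was at -0.60.

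**Figure D4:**
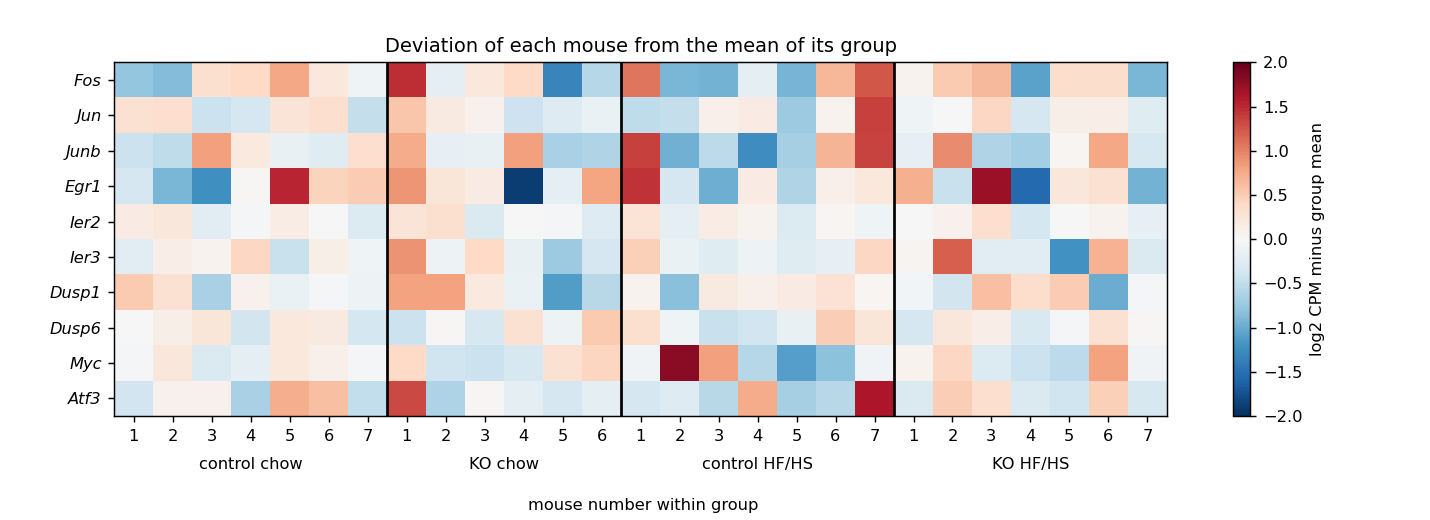
Deviation of each mouse from the mean of its group, in log2 CPM, for the 10 genes (rows) and 27 mice (columns, by group). Columns with several red cells include mouse 1 of the HGFAC-KO group on chow and mice 1 and 7 of the controls on HF/HS, columns with several blue cells include mouse 5 of each of these groups, and *Ier2* stays pale throughout.

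Whether the members went up and down together was asked over the 27 mice after removing group means. Of the 45 pairs, 37 had a positive correlation, with a median Pearson r of 0.18, so the set did not move as 1 unit. By a permutation test of mice within groups (two-sided, 100000 draws, Benjamini-Hochberg over the 45 pairs), 7 pairs passed by Pearson's r and 2 by both Pearson's r and Spearman's rho. *Fos* and *Junb* were the closest pair, with r = 0.753 (permutation p = 0.00019, adjusted p = 0.00855) and rho = 0.774 (permutation p = 0.00012, adjusted p = 0.0054). The pair was positive in every group, with r of 0.526 in controls on chow, 0.893 in controls on HF/HS, 0.864 in HGFAC-KO mice on chow and 0.526 in HGFAC-KO mice on HF/HS. Without the 2 mice farthest from the median of *Fos*, r was 0.742.

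*Junb* and *Ier3* had r = 0.551 (permutation p = 0.00133, adjusted p = 0.0199) and rho = 0.586 (permutation p = 0.00195, adjusted p = 0.0439), with r between 0.219 and 0.803 within groups and 0.504 without the 2 farthest mice. Leaving out mouse 2 or mouse 6 of the HGFAC-KO group on HF/HS gave r = 0.494 and 0.518 and ended the call (permutation, adjusted p = 0.0636 and 0.0594). *Jun* and *Atf3* had r = 0.727 (permutation p = 0.00057, adjusted p = 0.0128) but rho = 0.536 (permutation p = 0.0109, adjusted p = 0.0983). This pair was positive in all groups (r from 0.559 to 0.841), and without mouse 7 of the controls on HF/HS r was 0.565 (permutation, adjusted p = 0.0549). Without the 2 farthest mice it was 0.559.

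*Fos* also went with *Atf3* (r = 0.568, rho = 0.415) and with *Egr1* (r = 0.527, rho = 0.520), and *Ier3* with *Atf3* (r = 0.459, rho = 0.369). Permutation p for r was 0.00659, 0.00716 and 0.0075 (adjusted p = 0.0482 for each) and for rho 0.0521, 0.00706 and 0.0547 (adjusted p = 0.207, 0.0794 and 0.207). Without the 2 farthest mice r was 0.478, 0.521 and 0.448. Within groups r ran from 0.366 to 0.791 for *Fos* and *Atf3*, from 0.069 to 0.801 for *Fos* and *Egr1*, and from -0.429 to 0.818 for *Ier3* and *Atf3*. These calls were at the edge of the threshold and were lost without any of 20, 22 and 22 of the 27 mice. *Egr1* and *Junb*, which both rose with diet, were nearly unrelated within groups (r = 0.092, rho = 0.165, permutation p = 0.648 and 0.412, adjusted p = 0.833 and 0.698; r = -0.069 without the 2 farthest mice, and from -0.404 to 0.654 within groups).

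The only negative pair past the threshold joined the phosphatase gene *Dusp1* with *Myc*, at r = -0.509 (permutation p = 0.00316, adjusted p = 0.0355) and rho = -0.457 (permutation p = 0.02, adjusted p = 0.112). Within groups r was -0.962 in HGFAC-KO mice on HF/HS, -0.804 in controls on HF/HS and -0.390 in HGFAC-KO mice on chow, but 0.466 in controls on chow, so the relation did not hold in every group. Without the 2 farthest mice it was -0.455. It was lost without mouse 2 of the controls on HF/HS (r = -0.391, permutation, adjusted p = 0.185), mouse 2 or 6 of the HGFAC-KO group on chow, or mouse 2, 3, 4 or 6 of the HGFAC-KO group on HF/HS, with r from -0.503 to -0.444 for the mice other than the first (permutation, adjusted p from 0.0522 to 0.0917).

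**Figure D5:**
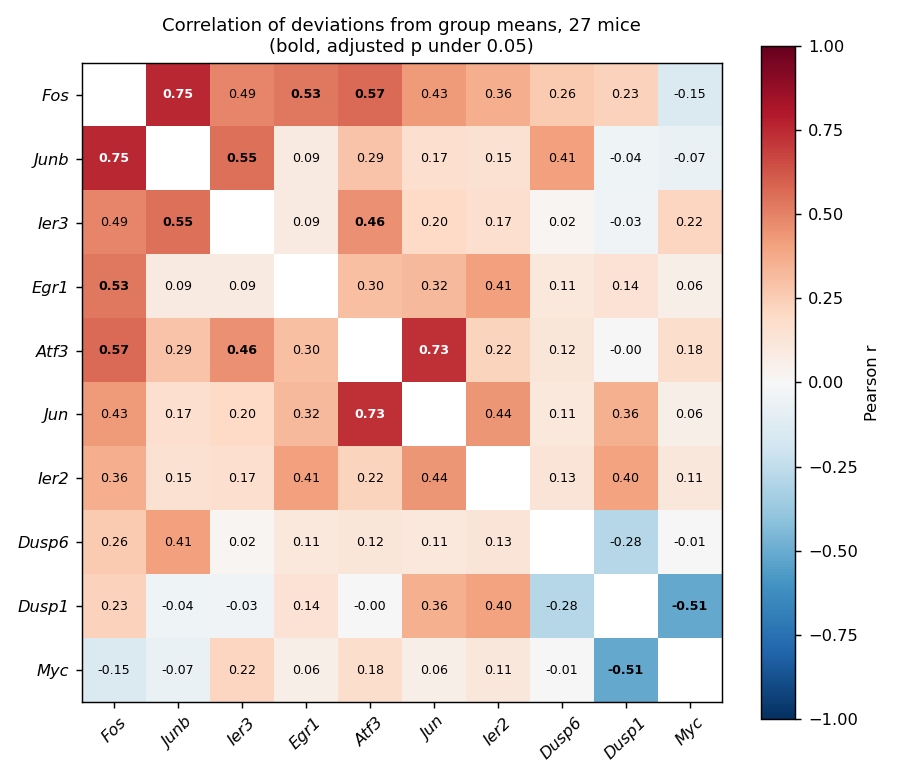
Pearson r between the 10 genes over 27 mice, from deviations from group means (colour scale from -1 to 1). Bold values have an adjusted p under 0.05; the highest are *Fos* with *Junb* (0.75) and *Jun* with *Atf3* (0.73), and the negative one is *Dusp1* with *Myc* (-0.51).

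The genes most like each member across mice were taken from all 13932 genes by Pearson's r of the same deviations, as a description. For *Junb* they were *Relb* (r = 0.927), *Cxcl1* (0.925), *Cebpb* (0.896), *Maff* (0.893) and *Tnfrsf21* (0.881). For *Fos* they were *Btg2* (r = 0.860), *Casp4* (0.835), *Adm* (0.810), *Tnfrsf21* (0.801) and *Junb* itself (0.753), so *Tnfrsf21* stood in the lists of both. *Ier3* was closest to *Ier5* (r = 0.853), *Trim47* (0.835), *Vasp* (0.834), *Tnfaip3* (0.818) and *Rhbdf2* (0.814). *Jun* was closest to *Alyref* (r = 0.774) and to its family member *Jund* (0.768), and *Atf3* to *Ppan* (0.803). *Relb* encodes an NF-kB subunit, *Cxcl1* a chemokine and *Tnfaip3* an inhibitor of NF-kB signaling.

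*Egr1* had other neighbours. Its closest genes were *Ltbp3* (r = 0.789), *Ogn* (0.701), *Clstn1* (0.694), *Lamb1* (0.682) and *Loxl1* (0.680), of which *Ltbp3*, *Ogn*, *Lamb1* and *Loxl1* encode extracellular matrix proteins. *Myc* was closest to *Gadd45g* (r = 0.908), *Cish* (0.881), *Wsb1* (0.784), *Onecut1* (0.768) and *Phlda1* (0.724), *Cish* being a feedback inhibitor of cytokine receptors. *Dusp6* was closest to *Sowahb* (r = 0.829) and had *Tgfa*, a ligand of the EGF receptor, among its 5 (0.725). *Dusp1* was closest to *Rpl22* (r = 0.776), a ribosomal protein gene, and *Ier2* to *Gnal* (0.700). The 5 nearest genes of each member gave 49 distinct genes, of which not all are named here. Of these 49, 8 were members or stood in the lists of pathway genes described afterwards, and 0 in the lists of cell type markers. The share of such genes among all genes was not counted, so no result is drawn from these counts.

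Markers of other liver cells were set beside the members, and their part in these results was not tested. The summed level of 8 stellate cell and fibroblast markers was highest in mouse 5 of the controls on chow (298.8 CPM, in a group from 201.7), mouse 1 of the controls on HF/HS (306.4 CPM, from 237.1) and mouse 3 of the HGFAC-KO group on HF/HS (367.8 CPM, from 220.1), which were also the mice with the highest *Egr1* of these groups. In HGFAC-KO mice on chow the same sum ran from 148.2 to 294.6 CPM and was highest in mouse 3, whereas *Egr1* was highest in mouse 1 (285.6 CPM of these markers). *Egr1* correlated with it at r = 0.609 (permutation p = 0.0012, adjusted p = 0.072) and rho = 0.505 (permutation p = 0.0122, adjusted p = 0.244), at 0.550 without the 2 farthest mice, and between 0.310 and 0.783 within groups. With the summed cholangiocyte markers *Egr1* had r = 0.545 (permutation p = 0.0053, adjusted p = 0.159) and rho = 0.529 (permutation p = 0.00804, adjusted p = 0.241), with r = 0.430 without the 2 farthest mice and from 0.224 to 0.842 within groups. Most of that sum was *Spp1* and *Sox9*, with medians of 27.2 and 22.6 CPM. *Krt19*, *Epcam* and *Krt7* had medians of 1.45, 1.12 and 0.678 CPM. *Junb* had r = 0.499 (permutation p = 0.0165, adjusted p = 0.198) and rho = 0.408 (permutation p = 0.0445, adjusted p = 0.334) with Kupffer cell and leukocyte markers, with r = 0.457 without the 2 farthest mice and from 0.147 to 0.670 within groups. No pair of a member and a marker list passed among the 60 tested, by permutation with adjustment over them. The count was 1 without mouse 3 or 6 of the controls on chow or mouse 2 or 5 of the controls on HF/HS, and 2 without mouse 1 of the HGFAC-KO group on chow.

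With diet, 1 of 10 Kupffer cell and leukocyte markers was higher on HF/HS in controls (*S100a8*, log2 fold change 1.62) and 4 of 10 in HGFAC-KO mice (*Cd68*, *Clec4f*, *Ptprc* and *Adgre1*, from 0.51 to 0.65), where 0 members passed in either genotype. Of all genes 10.5% passed in controls and 5.89% in HGFAC-KO mice, in either direction. Their summed level ran from 126.5 to 233.4 CPM in controls on chow, from 114.4 to 174.2 CPM in HGFAC-KO mice on chow, from 152.3 to 316.5 CPM in controls on HF/HS and from 165.1 to 262.0 CPM in the HGFAC-KO group on HF/HS. The highest sum belonged to mouse 7 of the controls on HF/HS, the mouse with the highest *Jun*. That mouse also had the highest sum of its group for the other immediate early genes (732.1 CPM, group median 522.1), the heat shock and stress genes (4447 CPM, median 3832), the glucocorticoid, fasting and insulin response genes (6081 CPM, median 3548), the growth factor ligands and receptors and the MAPK output genes. Mouse 1 of the HGFAC-KO group on chow, highest of its group for *Fos* and *Atf3*, was likewise the highest for the first 3 of these lists (706.2 CPM against a median of 509.4, 4399 against 4037 and 5364 against 2924). The part of these in the members' levels was not tested. Of 8 stellate markers 1 was lower with diet in controls (*Lrat*) and 0 passed in HGFAC-KO mice. Of 6 sinusoidal endothelial markers 0 passed in controls and 1 was higher in HGFAC-KO mice (*Stab2*), and of 4 erythroid genes 1 was lower in controls (*Hba-a2*) and 0 passed in HGFAC-KO mice. No hepatocyte or cholangiocyte marker passed within a genotype, within a diet or for the interaction. No marker of any list passed between genotypes on either diet, and the fit of 1 genotype and 1 diet term was not read for markers. In HGFAC-KO mice *Alb* was higher by 0.205 ± 0.061 on chow and 0.395 ± 0.091 on HF/HS in log2 units (edgeR, adjusted p = 0.801 and 0.331). *Sox9* was higher by 0.55 ± 0.16 and 0.78 ± 0.21 (adjusted p = 0.801 and 0.344). Of 6 hepatocyte markers 3 and 1 lay lower on these diets, and of 5 cholangiocyte markers 0 and 3.

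Other genes of the pathway were counted from lists chosen by name. Between genotypes, on either diet, and for the interaction, 0 genes passed (edgeR) in the lists of other immediate early genes (28 tested on chow and 30 on HF/HS), MAPK feedback and output genes (18), growth factor ligands and receptors (23), ERK cascade genes (24), heat shock and stress genes (16) and glucocorticoid, fasting and insulin response genes (15). At an unadjusted p under 0.05 there were 1, 4, 4, 2, 0 and 1 of them on chow, and 4, 1, 1, 1, 3 and 3 on HF/HS, beside 5.98% and 9.64% of all genes. Their medians ran from -0.05 to 0.04 on chow and from -0.31 to 0.15 on HF/HS, in log2 units. The lowest of these was that of the glucocorticoid and fasting list on HF/HS, in which 12 of 15 genes lay below their controls, while 49.5% of all genes lay above theirs. No test of a list was made.

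With diet, 2 of 28 other immediate early genes passed in controls, in opposite directions, beside 10.5% of all genes. The nuclear receptor gene *Nr4a2* was higher on HF/HS by 0.89 ± 0.23 on the log2 scale (edgeR, adjusted p = 0.0207) and the stress gene *Gadd45b* lower by -0.99 ± 0.23 (adjusted p = 0.0115). In HGFAC-KO mice 0 of 28 passed, with 4 at an unadjusted p under 0.05, beside 22.4% of all genes. The list's median was 0.08 in controls and 0.07 in HGFAC-KO mice. These medians are close to the 0.00 of all genes.

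Of 18 MAPK feedback and output genes, 3 passed with diet in HGFAC-KO mice, where 5.89% of all genes did. All 3 were higher on HF/HS, namely *Ccnd1*, which encodes cyclin D1, by 0.74 ± 0.16, *Spry4*, a feedback inhibitor of receptor tyrosine kinases, by 0.88 ± 0.20, and *Epha2*, an ephrin receptor gene, by 0.43 ± 0.11 (edgeR, adjusted p = 0.015, 0.0163 and 0.0309). In controls 0 of 18 passed, with 3 at an unadjusted p under 0.05 (25.4% of all genes), and the difference between genotypes passed for none of these genes. *Dusp6*, the member of the same feedback class, was at 0.04 ± 0.15 in the same comparison (adjusted p = 0.919), and its difference from these genes was not tested. *Hgf* was higher on HF/HS by 0.53 in controls and 0.91 in HGFAC-KO mice (adjusted p = 0.0479 and 0.0411), *Met* by 0.31 in controls (adjusted p = 0.0473) and *Egfr* by 0.61 in HGFAC-KO mice (adjusted p = 0.0122), so 2 of 23 ligand and receptor genes passed in each genotype. Of the ERK cascade, 0 of 24 passed in either genotype, and the same was true of the 16 heat shock and stress genes. *Tat*, a glucocorticoid-induced enzyme of tyrosine breakdown, was lower on HF/HS by -0.51 in controls and -0.75 in HGFAC-KO mice (adjusted p = 0.048 and 0.0121), the only one of 15 in its list.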

How the data were processed

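Liver mRNA of 27 mice was sequenced from stranded, paired-end libraries. The authors aligned the reads to GRCm38 (mm10) using HISAT2 and assigned them to genes using featureCounts 1.6.3, and they deposited 1 table of raw counts per gene. The strand setting of the counting is not given in the sources used here, so reads of overlapping antisense genes may be included. Of 27179 rows, 3886 name no gene. These rows, 4.13% to 12.1% of all counts by library, were removed before normalization and testing. Rows sharing 1 of 89 symbols were summed. Libraries of the same group always differed by more than counting noise (chi-square per gene 17.7 or more).

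Differential expression used edgeR 4.0.16 under R 4.3.3 (TMM, filterByExpr with a minimum count of 10 and a minimum total of 15, robust quasi-likelihood fit, Benjamini-Hochberg adjustment over all genes, threshold 0.05), using only the mice of the groups compared, or all mice for the interaction. Levels are CPM on TMM library sizes, and log2 CPM used a prior count of 2. Alternatives were DESeq2 1.42.0, limma 3.58.1 (voom), other filters and scalings, another prior count (0.5), a replicate block and leaving out each mouse. Correlations used deviations from group means and 100000 permutations of mice within groups (numpy 2.4.6, scipy 1.17.1). The scripts were tested on simulated data. Groups came from the labels.

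The members and lists were chosen with earlier results of these data known. All 10 members are named, with list genes past the threshold and some or all of the genes nearest to each member by r. Exon lengths and positions are from GENCODE M21. The correlations with marker lists and the fit of 1 genotype and 1 diet term were added after levels had been seen.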

Additional observations from a re-analysis of the deposited data

Results flagged for a closer look

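A mouse stood apart from the rest of its group, by the gap to its nearest neighbour over the range of the group, in 7 of the 40 sets of values (10 genes in 4 groups); chance gives about 1 in 20 (0.05 of the sets) for normally distributed values, which CPM need not be. On log2 CPM, a scale tried after the results had been seen, 3 of these 7 remained (*Jun* in mouse 7 and *Dusp1* in mouse 2 of the controls on HF/HS, and *Atf3* in mouse 1 of the HGFAC-KO group on chow) and no other mouse was added. In controls on HF/HS, mouse 7 had 89.3 CPM of *Jun*, with the others between 20.7 and 38.7, and 6.21 CPM of *Atf3*, with the others between 1.24 and 3.35. Mouse 2 of the same group had 15.2 CPM of *Myc*, with the others between 1.98 and 7.62, and was the low one for *Dusp1*, at 15.8 CPM against 29.0 to 34.4. Mouse 1 of that group had 21.4 CPM of *Egr1*, with the others between 4.00 and 9.08. In controls on chow, mouse 5 had 9.70 CPM of *Egr1*, with the others between 1.40 and 4.75. In HGFAC-KO mice on chow, mouse 1 had 7.47 CPM of *Atf3*, with the others between 1.93 and 3.01. No mouse of the HGFAC-KO group on HF/HS stood apart in this sense, although mouse 3 had 58.3 CPM of *Egr1*, with the others between 5.99 and 28.9.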

How the results depend on the processing

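Counting depth limits *Fos* and *Ier3* most. Groups of 6 or 7 mice leave SE from 0.29 to 0.53 on the log2 scale for *Egr1*, *Fos* and *Junb*, and log2 differences of *Egr1* as large as 1.65 did not pass. Of 760 values and counts recomputed under another test, filter, scaling, prior count, set of mice fitted or replicate block, 726 did not change by the measure that applied. The measure was direction and side of the threshold for fold changes and correlations, or a count or SD within 1.5 times. Genes called between genotypes on chow went from 1 to 13 with DESeq2 (10 without its independent filtering, a setting added after seeing the data) and on HF/HS from 2 to 55 with either form of DESeq2 and to 1 in a fit of all groups. In HGFAC-KO mice diet called 1401 genes with DESeq2, and in the fit of 1 genotype and 1 diet term, also added after seeing the data, genotype called 180 genes (163 without filtering). With diet in controls, DESeq2 and limma voom called 1 member (*Dusp6*), and in HGFAC-KO mice DESeq2 and the fit of all groups called 1 (*Egr1*). Over both genotypes limma voom left 1 of the 2 members. Direction changed with limma voom for *Fos* on chow (-0.15) and *Junb* in the interaction (0.11). Same-numbered mice did not deviate together as a rule (from 0 of 7 to 4 of 6 pairs had r over 0.1 by comparison, and in no comparison all of them), so the numbers were not taken as a pairing, and a replicate block moved the genes called with diet in controls to 774, those for genotype over both diets to 14, the members called with diet to 1 in HGFAC-KO mice and to 1 over both genotypes, *Fos* on chow to -0.12, and *Junb* to 0.0004 between genotypes on HF/HS and 0.0003 in the interaction. Leaving out 1 mouse at a time, genes called ran from 2 to 11 between genotypes on HF/HS (5 without mouse 7 of the controls, 11 without mouse 5 of the HGFAC-KO group), from 467 (without mouse 2 of the HGFAC-KO group on chow) to 950 with diet in HGFAC-KO mice, and from 2 to 63 for genotype over both diets. The members called ran from 0 to 1 with diet in each genotype and from 1 to 3 over both, correlated pairs from 2 to 9, and pairs with marker lists from 0 to 2. Log2 fold changes that crossed 0 ran, between genotypes on chow *Atf3* -0.20 to 0.36, *Dusp1* -0.24 to 0.10, *Fos* -0.43 to 0.23, *Ier3* -0.11 to 0.26, *Jun* -0.058 to 0.16, *Junb* -0.23 to 0.13, and between genotypes on HF/HS *Dusp1* -0.14 to 0.088, *Ier3* -0.039 to 0.39, *Jun* -0.34 to 0.12, *Junb* -0.43 to 0.0399, and with diet in controls *Dusp1* -0.053 to 0.14, and with diet in HGFAC-KO mice *Atf3* -0.099 to 0.43, *Dusp1* -0.098 to 0.24, *Dusp6* -0.046 to 0.16, *Jun* -0.0039 to 0.20, and for the interaction *Dusp1* -0.13 to 0.20, *Ier3* -0.16 to 0.36, *Jun* -0.43 to 0.044, *Junb* -0.38 to 0.089, and between genotypes over both diets *Dusp1* -0.13 to 0.025, *Jun* -0.16 to 0.094, *Myc* -0.29 to 0.0504, and with diet over both genotypes *Atf3* -0.33 to 0.0501, *Dusp1* -0.024 to 0.13, *Ier2* -0.0093 to 0.0495. All of these members were short of the threshold. The cause of these changes was not tested.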
